A study of Mus musculus with 8 samples.

Results

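Killer lectin-like receptors are cell-surface proteins best known from natural killer (NK) cells, and 5 of their genes, Klrd1, Klrc1, Klrk1, Klrg1 and Klre1, are described here in cultured mouse helper T cells with and without Tet2. They were found as the probesets that the array's annotation pairs with exactly 1 of these symbols, which gave 1 probeset for each of the 5 genes, out of 19938 genes measured this way. Total RNA from CD4+ T cells of C57BL/6 mice was read on 8 Affymetrix arrays in 4 groups of 2 biological replicates, namely Tet2-/- Th17, wild-type Th17, Tet2-/- Th1 and wild-type Th1 cells. Naive cells sorted from spleen and lymph node were activated through CD3 and CD28. The Th17 cultures of both genotypes received TGF-β1 at 0.5 ng/ml and IL-6 at 10 ng/ml with antibodies against IFN-γ and IL-4, and the Th1 cultures of both genotypes received IL-12 at 10 ng/ml and IL-2 at 30 U/ml with an antibody against IL-4. The length of culture, the age and sex of the mice, the design of the Tet2 allele and whether the 2 replicates came from separate mice are not given in the sources used here, so p-values measure the spread between these arrays. Tet2 is a dioxygenase that oxidises 5-methylcytosine in DNA, and the study compared expression in cells with and without it.

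CD94, the protein of Klrd1, is expressed as a heterodimer with a member of the NKG2 group. With NKG2A, the protein of Klrc1, it forms an inhibitory receptor, and with NKG2C or NKG2E, the proteins of Klrc2 and Klrc3, an activating receptor that signals through the adaptor Tyrobp. The ligand of these pairs in mice is Qa-1, a non-classical MHC class I molecule. NKG2D, the protein of Klrk1, stands apart from them: it is an activating homodimer that recognises stress-induced ligands and signals through the adaptor Hcst. KLRG1 is an inhibitory receptor for cadherins and a marker of differentiated effector T cells, and the protein of Klre1 pairs in mouse NK cells with that of Klri1 or Klri2. All but Klrg1 lie close together in the natural killer gene complex on mouse chromosome 6.

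The Th17 arrays were not alike in their sex-linked transcripts. Xist, the RNA that coats the inactive X chromosome, was at 8.62 and 11.3 log2 units on the Tet2-/- Th17 arrays of replicates 1 and 2, against 5.20 and 10.1 on the wild-type Th17 arrays. Averaged, the Y-linked genes were at 8.71 and 4.85 on the Tet2-/- Th17 arrays, against 8.80 and 7.83 on the wild-type Th17 arrays. The 4 Th1 arrays had Xist between 4.83 and 5.11 and Y-linked means between 7.95 and 8.24. Tet2 itself was at 8.37 and 8.42 on the Tet2-/- Th17 arrays, against 8.53 and 8.51 on the wild-type Th17 arrays, and at 8.12 and 7.97 on the Tet2-/- Th1 arrays, against 8.14 and 8.03 on the wild-type Th1 arrays. The sources used here do not say where its probes lie relative to the deletion, so Tet2 does not check the genotype labels. Array medians lay between 6.47 and 6.53 log2 units, and arrays of 1 group correlated at 0.990 to 0.994 across genes.

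Upstream sequence was read for a receptor on either side of the results, because Tet2 acts on cytosines that precede a guanine. RefSeq's promoter table for GRCm38.p6 held 3 of the 5 genes (Klrc1, Klrk1 and Klre1), and sequences are shown for Klrc1, the dimer partner of Klrd1, and for Klrb1f, the family member that differed most between the Th17 and Th1 cultures. Each runs 5′ to 3′ on the gene's strand, and capitals mark each CG. The Klrc1 stretch ends at the most upstream start in that table. The Klrb1f stretch ends short of that start, where the gene's annotated span begins. The Klrc1 stretch is chr6:129678974-129679223 on the minus strand and lies inside the gene's annotated span, and the Klrb1f stretch is chr6:129045651-129045836 on the plus strand.
Klrc1: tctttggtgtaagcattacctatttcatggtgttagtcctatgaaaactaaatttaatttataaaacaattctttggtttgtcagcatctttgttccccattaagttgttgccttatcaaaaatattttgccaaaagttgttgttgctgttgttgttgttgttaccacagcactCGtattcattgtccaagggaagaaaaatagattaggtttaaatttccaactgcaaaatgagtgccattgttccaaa
Klrb1f: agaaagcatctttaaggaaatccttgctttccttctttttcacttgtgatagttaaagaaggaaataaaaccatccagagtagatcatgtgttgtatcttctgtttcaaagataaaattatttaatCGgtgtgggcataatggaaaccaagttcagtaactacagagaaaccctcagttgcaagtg

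The Klrc1 stretch of 250 bases held 1 CG, and 19.5% of the 27025 promoters compared over the same length held as few. The Klrb1f stretch of 186 bases also held 1, as few as in 27.6% of promoters of that length. The Klrk1 stretch of 211 bases held 4 (as few in 50.5%) and the Klre1 stretch of 250 bases held 2 (as few in 29.6%). Like that of Klrc1, the Klre1 stretch lies inside the gene's annotated span. The Klrk1 stretch, like that of Klrb1f, was cut where the annotated span begins. The Runx motif TGTGGT, searched on both strands, occurred 1 time in each of the Klrc1, Klrk1 and Klre1 stretches and 0 times in that of Klrb1f, and 14.2% of all promoters held it. The motif shares are over 250 bases of every promoter, so they are not matched to the shorter Klrk1 and Klrb1f stretches. The T-box motif TCACACC, held by 3.31% of promoters, the ROR motif AGGTCA, held by 13.8%, the STAT motif TTCNNNGAA, held by 7.14%, and the AP-1 motif TGANTCA, held by 6.85%, had no match in any of the 4 stretches. These motifs do not share a match with one another here, and no methylation was measured in these samples.

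Klrd1 was highest in Tet2-/- Th17 cells. Its level was 7.29 and 8.10 log2 units on the Tet2-/- Th17 arrays and 6.34 and 6.56 on the wild-type Th17 arrays. On the Th1 arrays it was 5.92 and 5.99 in Tet2-/- cells and 5.96 and 5.72 in wild-type cells. The groups thus fell in the order Tet2-/- Th17, wild-type Th17, Tet2-/- Th1 and wild-type Th1, with no overlap between the first 3 and an overlap between the Th1 groups. The group means were 7.69 ± 0.57, 6.45 ± 0.16, 5.95 ± 0.05 and 5.84 ± 0.17 (SD, n = 2 each), so the Tet2-/- Th17 arrays were also the furthest apart of any pair.

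To place these levels, 1027 olfactory receptor genes, which T cells are not known to use, were read on the same arrays, a guide chosen after values had been seen. Their levels ran from 3.81 at the 5th percentile to 6.79 at the 95th, called the olfactory range here, with a median of 5.30. Klrd1 lay above 6.79 on both Tet2-/- Th17 arrays and on none of the other 6. The other 4 members lay below it on all 8 arrays, so their levels were within the range of genes with little or no expression, and small differences among them cannot be told from background signal.

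**Figure D1:**
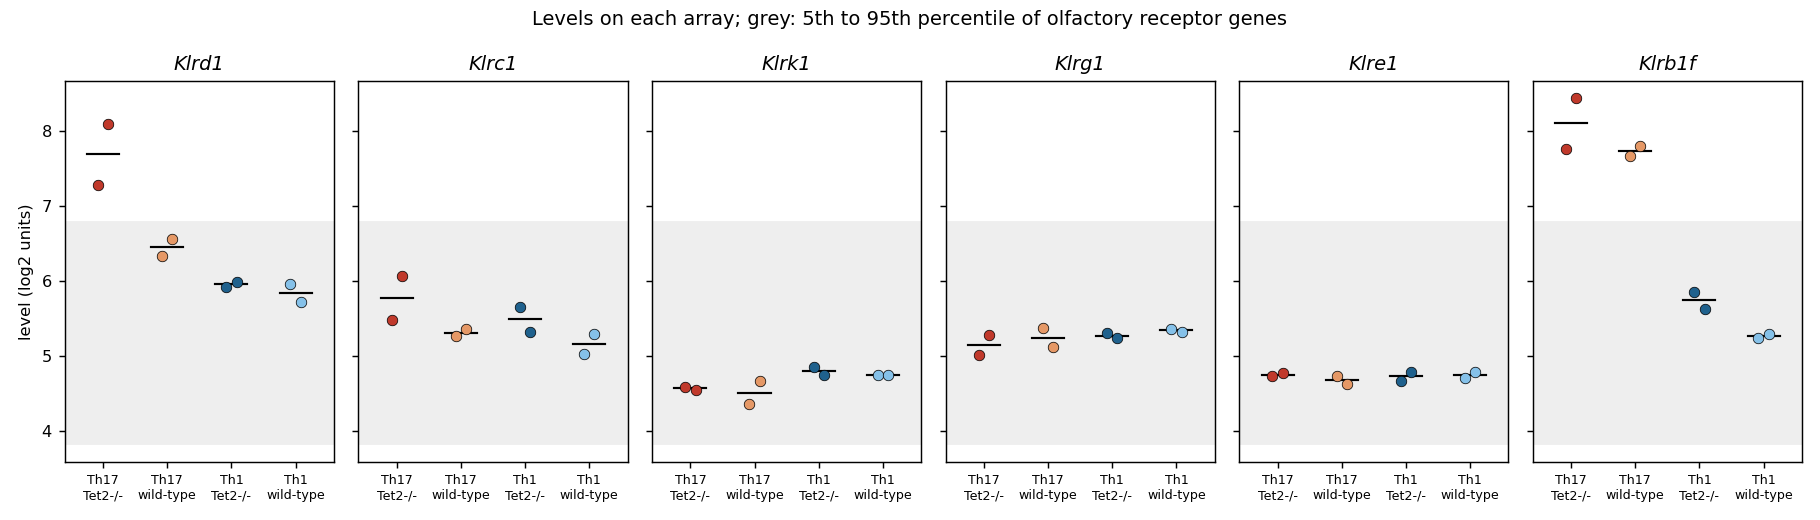
Level of each gene (log2 units, vertical axis) on each array, in Tet2-/- and wild-type Th17 and Tet2-/- and wild-type Th1 cells; points are arrays, bars the mean of 2, and the grey band spans the 5th to 95th percentile of olfactory receptor genes, 3.81 to 6.79. Klrd1 leaves the band on the Tet2-/- Th17 arrays only, and Klrb1f on all 4 Th17 arrays.

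Between genotypes in Th17 cells, Klrd1 differed by 1.24 log2 units (SE 0.20, 95% interval 0.80 to 1.68), or 2.37-fold, with the higher level in Tet2-/- cells. Both wild-type Th17 arrays lay within the olfactory range, so this fold is set against a level that cannot be told from background signal, and its size is uncertain. Klrd1 was selected on this difference, the measured value that brought the 5 genes forward, so it is a description with no test. The interval takes no account of that choice. Klrd1 ranked 4th highest of 19938 genes by this difference. In Th1 cells, which did not enter the choice, the difference was 0.11 log2 units (SE 0.20, interval -0.33 to 0.55) and did not pass the test (adjusted p = 0.97, limma with Benjamini-Hochberg adjustment over all genes). The difference between these 2 genotype effects was 1.13 log2 units (SE 0.29, interval 0.51 to 1.75), again a description with an interval that ignores the choice. It was 0.73 without the Tet2-/- Th17 array of replicate 2, and 0.61 without that array and the wild-type Th17 array of replicate 1.

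The Tet2-/- Th17 array with the higher Klrd1 was replicate 2, which had the highest Xist and the lowest Y-linked level of all arrays. Without that array the Th17 genotype difference of Klrd1 was 0.84 log2 units, and without the other Tet2-/- Th17 array it was 1.65. Leaving out the Tet2-/- array of replicate 2 together with the wild-type array of replicate 1, the Th17 arrays at the extremes of Xist, gave 0.72, and adding the Y-linked level to the fit gave 0.92. Both Tet2-/- Th17 arrays lay above both wild-type Th17 arrays, so leaving arrays out could not reverse the difference. The part of the sex-linked transcripts in its size was not tested beyond these fits. On the Tet2-/- array of replicate 1 and the wild-type array of replicate 2, Xist was above every Th1 array and the Y-linked mean above that of the Tet2-/- array of replicate 2. The sex of the donor mice is not stated, so a genotype effect in Th17 cells and a difference in the sex of the donors, single or pooled, are not cleanly separated by these arrays. The same limit holds for every Th17 minus Th1 comparison here and for the difference and mean of the genotype effects. Xist was at 8.62 and 11.3 on the Tet2-/- Th17 arrays and 10.1 on the wild-type Th17 array of replicate 2, against at most 5.11 on the Th1 arrays.

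**Figure D2:**
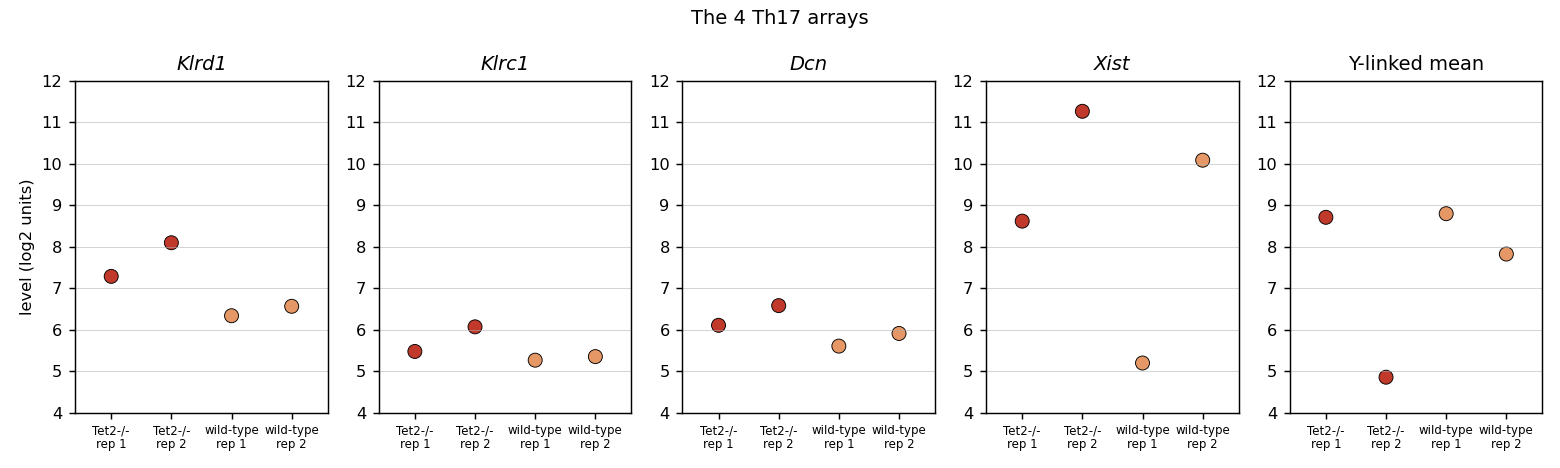
Levels (log2 units, vertical axis) of Klrd1, Klrc1, Dcn and Xist and the mean of the Y-linked genes on each of the 4 Th17 arrays, Tet2-/- left of wild-type; each point is 1 array. Klrd1, Klrc1 and Dcn were all highest on the Tet2-/- array of replicate 2, where the Y-linked mean was 4.85.

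Between cultures, the Klrd1 differences are given with no test, because each rests in part on Th17 arrays for which Klrd1 was chosen. In wild-type cells the difference was 0.61 log2 units, Th17 minus Th1 (SE 0.20), with no overlap between the arrays. All 4 of these arrays lay within the olfactory range, so, as for the other members, the difference is between levels that cannot be told from background signal. Over 19 alternative fits it lay between 0.489 and 0.727 log2 units. In Tet2-/- cells the same difference was 1.74 log2 units (SE 0.20), given with no fold because both Tet2-/- Th1 arrays lay within the olfactory range. The Th17 arrays of both genotypes entered the difference for which Klrd1 was chosen. The arrays of every group serve in both a genotype and a culture comparison, so these values are not independent.

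Klrc1, the inhibitory partner of CD94, stayed low. It was at 5.48 and 6.07 log2 units on the Tet2-/- Th17 arrays, against 5.27 and 5.35 on the wild-type Th17 arrays, and at 5.65 and 5.32 on the Tet2-/- Th1 arrays, against 5.03 and 5.29 on the wild-type Th1 arrays. In each culture condition both Tet2-/- arrays lay above both wild-type arrays. The genotype difference was 0.46 log2 units in Th17 cells (SE 0.18, adjusted p = 0.999) and 0.33 in Th1 cells (SE 0.18, adjusted p = 0.855). The mean of the 2 was 0.40 log2 units (SE 0.13, interval 0.12 to 0.67, adjusted p = 0.878), and the 2 effects differed by 0.14 (SE 0.25, adjusted p = 0.999). None of these passed the test. Without the Tet2-/- Th17 array of replicate 2 the Th17 difference was 0.17 and the mean 0.25, and without the Tet2-/- Th17 array of replicate 1 the Th17 difference was 0.76. The Th1 difference was 0.16 without the Tet2-/- Th1 array of replicate 1, 0.49 without that of replicate 2 and 0.20 without the wild-type Th1 array of replicate 1.

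The activating partners were read as well. Klrc2 was at 5.87 and 6.15 log2 units on the Tet2-/- Th17 arrays, against 5.51 and 5.59 on the wild-type Th17 arrays, a difference of 0.46 (SE 0.12, adjusted p = 0.73) that did not pass the test. On the Th1 arrays Klrc2 lay between 5.83 and 5.92, and its genotype difference there was -0.02. Klrc3 lay between 3.48 and 4.22 on all 8 arrays, with overlapping genotypes in both cultures. Klrc1, Klrc2 and Klrc3 are closely similar genes, so signal at 1 of them may come in part from another, and their separate values are uncertain for that reason.

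Klrk1, the NKG2D gene, was the member that was lower in Th17 cells on every array. It was at 4.59 and 4.54 log2 units on the Tet2-/- Th17 arrays, against 4.84 and 4.74 on the Tet2-/- Th1 arrays, and at 4.35 and 4.66 on the wild-type Th17 arrays, against 4.74 and 4.75 on the wild-type Th1 arrays. The culture difference was -0.23 log2 units in Tet2-/- cells (SE 0.12, adjusted p = 0.276) and -0.24 in wild-type cells (SE 0.12, adjusted p = 0.244), and neither passed the test. The genotype differences were 0.06 log2 units in Th17 cells and 0.05 in Th1 cells, with arrays that overlapped in both.

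Klrg1, the cadherin receptor, varied little. It was at 5.01 and 5.28 log2 units on the Tet2-/- Th17 arrays, against 5.37 and 5.12 on the wild-type Th17 arrays, and at 5.30 and 5.24 on the Tet2-/- Th1 arrays, against 5.36 and 5.32 on the wild-type Th1 arrays. Its genotype difference was -0.09 log2 units in Th17 cells (adjusted p = 0.999) and -0.07 in Th1 cells (adjusted p = 0.969), where the arrays did not overlap. Its culture difference was -0.12 in Tet2-/- cells and -0.10 in wild-type cells, which did not pass the test either (adjusted p = 0.611 and 0.683).

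Klre1 was the flattest of the 5, with a range of 0.158 log2 units over the 8 arrays. It was at 4.73 and 4.76 on the Tet2-/- Th17 arrays, against 4.73 and 4.62 on the wild-type Th17 arrays, and at 4.67 and 4.78 on the Tet2-/- Th1 arrays, against 4.70 and 4.78 on the wild-type Th1 arrays. The groups overlapped in all 4 comparisons, and the fitted differences ran from -0.07 to 0.07. The ranges of the other members were 0.352 for Klrg1, 0.493 for Klrk1, 1.04 for Klrc1 and 2.37 for Klrd1.

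**Figure D3:**
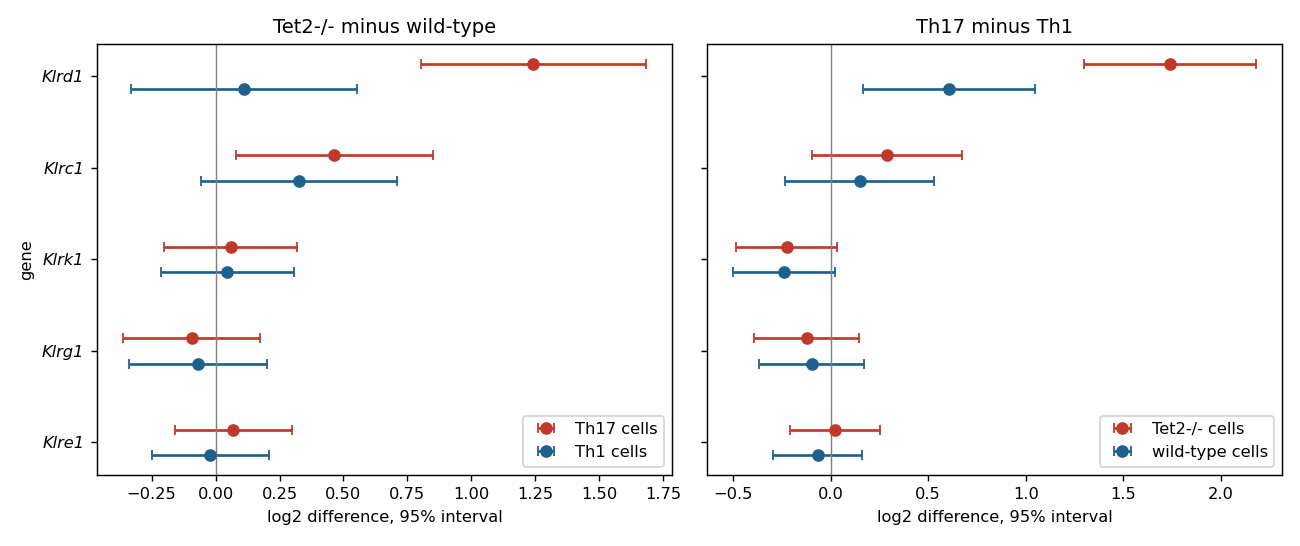
Log2 difference of each member with its 95% interval (horizontal axis), for Tet2-/- minus wild-type cells (left, red Th17 and blue Th1) and Th17 minus Th1 cells (right, red Tet2-/- and blue wild-type). The Klrd1 interval in Th17 cells runs from 0.80 to 1.68 and is shown without a test, while in Th1 cells it runs from -0.33 to 0.55. Klrd1 intervals that rest on Th17 arrays take no account of how Klrd1 was chosen.

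Counted over the tests, 0 members were called at an adjusted p under 0.05 in any comparison by limma. In Th17 cells 4 members were tested between genotypes and 0% of all genes were called, with 848 of the 19938 at an unadjusted p under 0.05, among them Klrc1. In Th1 cells 5 members were tested and 0.00502% of genes, which is 1 gene, were called, with 1145 genes and 0 members at an unadjusted p under 0.05. For the difference between the genotype effects and for their mean, 0% of genes were called, with 908 and 1060 genes at an unadjusted p under 0.05, the second including Klrc1. Between cultures, 10.4% of genes were called in Tet2-/- cells and 8.47% in wild-type cells. In each genotype 0 of 4 members were among them, Klrd1 being given with no test.

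Arrays that did not overlap were common among all genes, which sets the scale for the members. Between genotypes in Th17 cells, both Tet2-/- arrays lay above both wild-type arrays for 19.9% of genes and below them for 13.3%. This held for 2 members (Klrd1 and Klrc1) and 0 members, and Klrd1 was chosen on these same values. In Th1 cells the shares were 18.3% above and 14.4% below, with 1 member each (Klrc1 above and Klrg1 below). Between cultures in Tet2-/- cells, Th17 arrays lay above Th1 arrays for 28.8% of genes and below for 27.6%, and in wild-type cells for 25.2% and 26.7%. In both genotypes 1 member, Klrd1, was above and 1, Klrk1, was below, and the Th17 values of Klrd1 had entered its choice.

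The genes whose levels ran most like each member were taken by Pearson's r over the 8 arrays, among genes with a range of at least 1 log2 unit. The 8 points are 4 pairs of replicates, so r mostly restates the group order, and it is given as a description. For Klrd1 they were Dcn, a proteoglycan of connective tissue (r = 0.973), Naaa, a lysosomal amidase (0.950), Dhx40, an RNA helicase (0.945), Tent5c, a poly(A) polymerase (0.944), and Scp2, a lipid carrier (0.943). For Klrc1 the first was Cdc25b, a cell-cycle phosphatase (0.892), followed by Acadl, Fgl2, Gsap and Ifi209 (0.833 to 0.810). For Klrk1 they were Tapbp, which helps load peptides on MHC class I (0.955), B4galnt1, Yif1b, Gramd1b and Ier3 (0.951 to 0.937). For Klrg1 all 5 were olfactory receptor genes, and for Klre1 3 of 5 were, beside Ssxb3 (0.848) and Shcbp1 (0.689).

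Dcn, the gene most like Klrd1, is on the list of stromal and endothelial markers. Dcn was at 6.11 and 6.58 log2 units on the Tet2-/- Th17 arrays, against 5.60 and 5.91 on the wild-type Th17 arrays, and between 5.30 and 5.44 on the Th1 arrays. All of these Dcn levels lay within the olfactory range. Lum, another matrix proteoglycan, was at 8.13 and 8.00 on the Tet2-/- Th17 arrays, against 6.98 and 7.11 on the wild-type Th17 arrays (difference 1.02, adjusted p = 0.0689), and between 5.07 and 5.41 on the Th1 arrays. All 6 markers of that list were higher in Tet2-/- than in wild-type Th17 cells and 0 were called. Their mean level was 7.15 to 7.21 on the Tet2-/- Th17 arrays, 6.78 to 6.89 on the wild-type Th17 arrays, 6.35 to 6.47 on the Tet2-/- Th1 arrays and 6.26 to 6.33 on the wild-type Th1 arrays. The 4 others differed less between the genotypes in Th17 cells, Pecam1 by 0.25, Cdh5 by 0.15, Col1a1 by 0.05 and Col1a2 by 0.02. Between cultures, 3 of the 6 were called higher in Th17 cells of the Tet2-/- genotype, namely Lum (2.87, adjusted p = 8.82e-08), Pecam1 (1.13, adjusted p = 0.000188) and Dcn (1.01, adjusted p = 0.00115). In wild-type cells 2 were called higher, Lum (1.78, adjusted p = 5e-06) and Pecam1 (1.32, adjusted p = 6.46e-05), and 0 were called lower in either genotype. The list did not move as 1: in each genotype 4 of the 6 markers were higher in Th17 than in Th1 cells and 2, Col1a1 and Col1a2, were lower. The part of such cells in the Klrd1 result was not tested, and in bulk RNA more cells of a type and more RNA per cell cannot be told apart.

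Of 13 listed markers of NK cells, 10 were measured, with a mean level of 5.61 to 5.70 log2 units on the Tet2-/- Th17 arrays, 5.59 to 5.64 on the wild-type Th17 arrays, 5.85 to 5.90 on the Tet2-/- Th1 arrays and 5.97 to 6.03 on the wild-type Th1 arrays. Ncr1 lay between 4.22 and 4.82, Klrb1c (NK1.1) between 3.94 and 4.27 and the granzyme gene Gzma between 4.77 and 5.03 on the 8 arrays, all within the olfactory range. Eomes, a T-box factor, lay between 6.69 and 8.26 and Prf1, the perforin gene, between 6.75 and 8.07. Both reached above the olfactory range, but their lowest values, on Th17 arrays, lay within it. Eomes and Prf1 were the 2 NK markers called lower in Th17 than in Th1 cells in each genotype, and 0 were called higher. Prf1 differed by -0.79 in Tet2-/- cells and -0.98 in wild-type cells (adjusted p = 0.00636 and 0.00197). In Th17 cells 6 of the 10 were higher in Tet2-/- than in wild-type cells and 0 were called. The 9 CD4 T cell markers had a mean level of 9.84 to 10.1 on all arrays.

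Among the wider family, 22 of 28 listed genes had a probeset with 1 symbol, and the other 6 were not analysed here. Besides Klrd1, only Klrb1f passed the 95th percentile of the olfactory receptor genes on any array; the other 20 lay between 3.48 and 6.19 log2 units. Klrb1f encodes NKR-P1F, a receptor for a C-type lectin-related ligand. It was at 7.77 and 8.44 on the Tet2-/- Th17 arrays, against 5.85 and 5.63 on the Tet2-/- Th1 arrays, and at 7.67 and 7.80 on the wild-type Th17 arrays, against 5.23 and 5.28 on the wild-type Th1 arrays. It rose by 2.37 log2 units in Th17 over Th1 cells in the Tet2-/- genotype (SE 0.18, adjusted p = 5.79e-06) and by 2.48 in the wild type (SE 0.18, adjusted p = 3.35e-06). Its Th1 levels all lay within the olfactory range, so the size of this rise is uncertain. Its genotype differences, 0.37 in Th17 cells and 0.48 in Th1 cells, did not pass the test (adjusted p = 0.999 and 0.824).

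The other 17 family genes, the 5 members set aside, gave few calls. In Tet2-/- cells 1 was called higher in Th17 than in Th1 cells, Klrb1f, and 0 lower, with a median difference of -0.02 log2 units against -0.01 over all genes. In wild-type cells 1 was called higher, Klrb1f, and 1 lower, Klra17 (-0.57, adjusted p = 0.0185), with a median of -0.10 against -0.01 over all genes. Klra17 lay at mean levels of 4.08 and 4.65 log2 units in wild-type Th17 and Th1 cells, within the range of the olfactory receptor genes. Between genotypes 0 of the 17 were called in either culture, with 12 of 17 higher and a median of 0.10 in Th17 cells, against 0.02 over all genes, and 8 of 17 higher and a median of -0.01 in Th1 cells, against 0.01.

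In chromosomal order, 38 measured genes lie between Klrb1a and Klra2, 4 of them members. The neighbours of Klrd1 are Olr1, Tmem52b, Gabarapl1 and Klre1 on one side and Klrk1, Klrc3, Klrc2 and Klrc1 on the other, by the RefSeq gene table for GRCm38.p6. Gabarapl1, an autophagy gene 2 places from Klrd1, had mean levels of 8.48 and 8.37 log2 units in Tet2-/- and wild-type Th17 cells and 8.17 and 8.04 in Tet2-/- and wild-type Th1 cells, with overlapping genotypes in both cultures. Of the 34 genes of the complex that are no members, 0 were called between genotypes in either culture. Between cultures, Klrb1f and Cd69, an activation marker, were called higher in Th17 cells of both genotypes (Cd69 by 0.89 in Tet2-/- cells and 1.16 in wild-type cells, adjusted p = 0.00461 and 0.000925). In wild-type cells Clec2d was also called higher, and Olr1 (-0.47, adjusted p = 0.0194) and Klra17 lower. The wild-type levels of Olr1 and Klra17 all lay within the olfactory range, so these differences cannot be told from background signal.

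**Figure D4:**
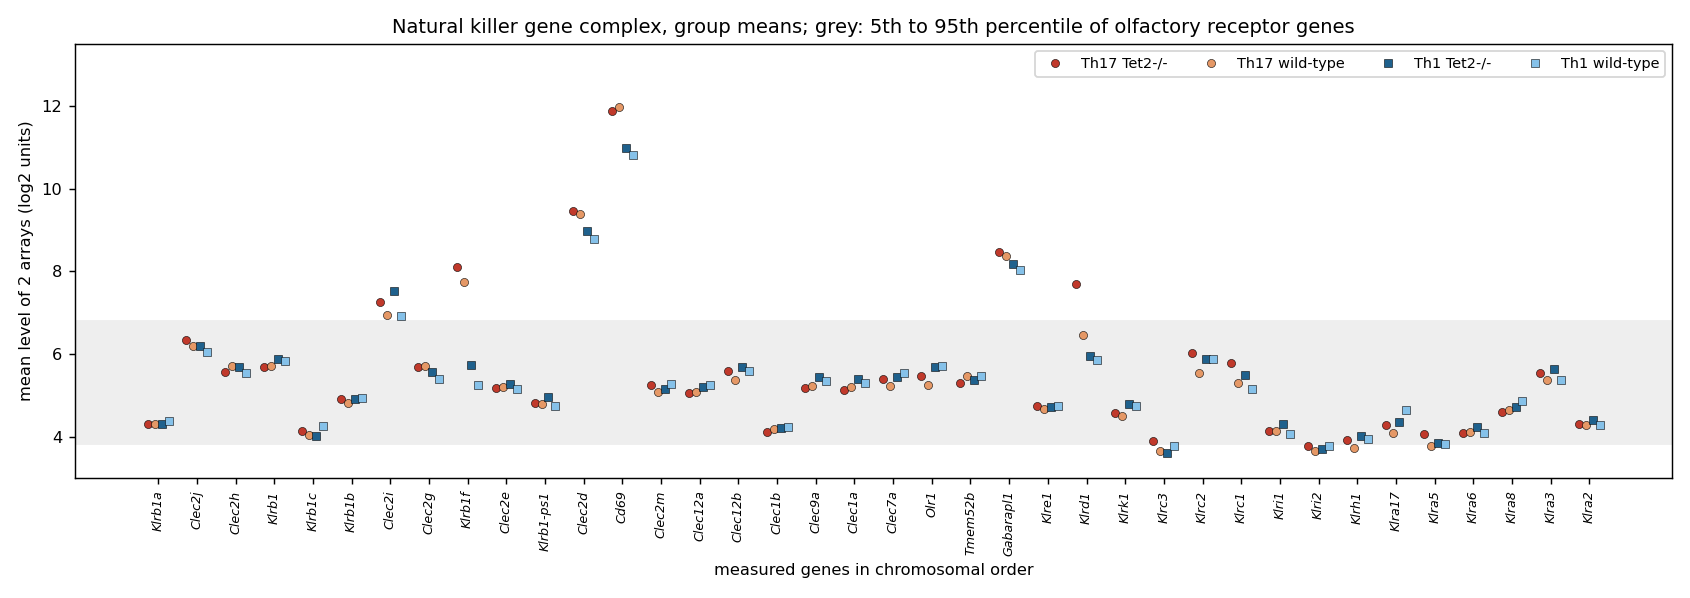
Mean level of 2 arrays (log2 units, vertical axis) of each measured gene of the natural killer gene complex in chromosomal order, in Tet2-/- and wild-type Th17 (circles) and Th1 (squares) cells; the grey band spans 3.81 to 6.79, the 5th to 95th percentile of olfactory receptor genes. Most of the 38 genes sit in the band, and Klrd1 leaves it only in Tet2-/- Th17 cells, at a mean of 7.69.

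Adaptors and signalling enzymes used by these receptors were measured for 18 of 19 listed genes. Hcst, the adaptor of NKG2D, lay between 6.45 and 6.75 log2 units on the 8 arrays, and Tyrobp, the adaptor of the activating CD94 pairs, between 5.59 and 6.12, both below the 95th percentile of the olfactory receptor genes. Between genotypes 0 of 18 were called in Th17 cells and 0 in Th1 cells, with medians of -0.04 and 0.00. Between cultures in Tet2-/- cells, Inpp5d, a lipid phosphatase, was called higher in Th17 cells (0.68, adjusted p = 0.0155), and Ptpn6, the phosphatase SHP-1 that NKG2A recruits, and Vav2 were called lower (-0.53, adjusted p = 0.0219, and -0.48, adjusted p = 0.0234). In wild-type cells Inpp5d and Zap70, a T cell receptor kinase, were called higher (0.69, adjusted p = 0.0186, and 0.62, adjusted p = 0.0145) and 0 lower.

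Ligands were measured for 10 of 20 listed genes, and those of CD94 with NKG2A (H2-T23) and most of those of NKG2D were not analysed here. Of the cadherin ligands of KLRG1, Cdh1 lay between 5.97 and 6.24 log2 units, Cdh2 between 4.36 and 4.52 and Cdh4 between 6.30 and 6.60 on the 8 arrays. Clec2d, a ligand of NKR-P1 receptors, was called higher in Th17 than in Th1 cells of the wild type (0.61, adjusted p = 0.0208), while in Tet2-/- cells the difference was 0.49 (adjusted p = 0.0504). H60b, a ligand of NKG2D, differed by 1.12 in Tet2-/- cells and 1.08 in wild-type cells with an SE of 0.43, which did not pass the test (adjusted p = 0.12 and 0.14). Between genotypes 0 of 10 were called in either culture.

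Of 19 measured transcription factors with a role in NK and cytotoxic T cells, 4 were called higher and 7 lower in Th17 than in Th1 cells of the Tet2-/- genotype, and 5 higher and 6 lower in the wild type. Tbx21, which encodes T-bet, differed by -3.30 log2 units in Tet2-/- cells (adjusted p = 1.06e-07) and by -2.56 in wild-type cells (adjusted p = 1.13e-06). Eomes differed by -1.36 in Tet2-/- cells and -1.31 in wild-type cells (adjusted p = 4.76e-05 and 7.67e-05), so both T-box factors were lower in the Th17 cultures of both genotypes. Bcl6, the repressor that directs follicular helper T cells, was higher by 1.88 in Tet2-/- cells and 1.18 in wild-type cells (adjusted p = 5.79e-06 and 0.000227). Between genotypes 0 of 19 were called in either culture: Bcl6 differed by 0.75 in Th17 cells (adjusted p = 0.366), Tbx21 by -0.54 in Th17 cells (adjusted p = 0.764) and Prdm1, which encodes Blimp-1, by -0.77 in Th1 cells (adjusted p = 0.176).

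Of 9 other receptors of NK and cytotoxic T cells, 2 were called higher and 2 lower in Th17 than in Th1 cells in each genotype. Slamf6 was higher by 1.10 log2 units in Tet2-/- cells and 1.12 in wild-type cells (adjusted p = 0.000149 and 0.000145), and Cd96 by 0.85 and 0.78. Tigit differed by -1.16 in Tet2-/- cells and -1.01 in wild-type cells, and Slamf7 by -1.03 and -0.91, all 4 values with adjusted p under 0.05. Between genotypes 0 of the 9 were called in either culture. The lineage genes checked the culture labels: Il17a was 3.10 higher in Th17 than in Th1 cells of the Tet2-/- genotype and 3.78 higher in the wild type, and Ifng differed by -4.28 and -5.68, with adjusted p of at most 2.43e-07 for each. Ifng was the 1 gene called between genotypes in Th1 cells (-1.42, adjusted p = 0.00391).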

How the data were processed

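Total RNA was hybridised to 8 arrays. The deposited table gives log2 levels of probesets on each array, made by the authors using Partek and RMA, as the submitters' processing notes list. The sources used here give no version, filter or genome build, and the values' range was read as log2. Of 35556 probesets, 21789 had 1 gene symbol in the platform annotation, 1621 several and 12146 none listed. For each gene the single-symbol probeset with the highest mean was kept (19938 genes), with no filter on low levels. Array values carry no count depth, so the number of arrays limits the precision.

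Group means were estimated from the 8 arrays together in limma 3.58.1 under R 4.3.3 (lmFit and eBayes with an intensity trend, 4 residual and 8.44 prior degrees of freedom), two-sided, with Benjamini-Hochberg adjustment and a threshold of 0.05. Fold changes are powers of these log2 differences. The fit was tested on simulated data. Alternatives were replicate blocks, other normalizations, probeset rules and filters, a Y-linked covariate, and arrays left out.

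The members and gene lists were chosen with earlier results of these data known, Klrd1 for its Th17 genotype difference. The text names the 5 members, called list genes (at most 4 per list and comparison, otherwise up to 3 by p), the 4 neighbours of Klrd1 on each side, and the 5 genes most like each member. Markers, ligands and levels that describe a named result were added after values were seen.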

Additional observations from a re-analysis of the deposited data

How the results depend on the processing

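The Th17 genotype difference of Klrd1 lay between 0.723 and 1.65 log2 units over the 19 alternatives. Klrd1 was selected on this difference, and its Th17 arrays did not overlap between genotypes. Leaving arrays out could therefore change its size but not its direction. Between wild-type cultures the Klrd1 difference lay between 0.489 and 0.727 log2 units over the 19 alternatives. It is given with no test, because the wild-type Th17 arrays entered the choice of Klrd1. None of the other members was called in any alternative fit. Over all genes, same-numbered arrays of the 2 genotypes did not deviate together (correlations -0.078 in Th17 and -0.067 in Th1 cells). That cannot settle whether the numbers pair the samples. In both Th17 genotypes Xist was higher and the Y-linked mean lower on the array of replicate 2 than on that of replicate 1.

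Small differences changed sign. The 2 Th17 arrays at the extremes of Xist were left out together in 1 fit. In that fit Klrk1 was -0.073 between genotypes in Th17 cells, -0.119 for the difference of effects and -0.0135 for their mean. Klrc1 was -0.201 for the difference of effects and -0.00982 between Tet2-/- cultures. The Y-linked covariate gave -0.0746 for Klrc1's difference of effects, and quantile normalization gave -0.00792 for that of Klrk1 and 0.0133 for Klre1 in Th1 cells. With 1 array left out, the Th1 genotype differences ran from -0.00825 to 0.23 (Klrd1), -0.00643 to 0.0985 (Klrk1) and -0.0755 to 0.0349 (Klre1), and those in Th17 cells from -0.096 to 0.215 (Klrk1) and -0.228 to 0.0411 (Klrg1). The differences of effects ran from -0.158 to 0.436 (Klrc1), -0.142 to 0.169 (Klrk1) and -0.159 to 0.11 (Klrg1), and the mean effects from -0.025 to 0.13 (Klrk1) and -0.00328 to 0.0519 (Klre1). The culture differences ran from -0.222 to 0.0271 (Klrg1, wild-type) and, in Tet2-/- cells, -0.256 to 0.0127 (Klrg1), -0.00982 to 0.584 (Klrc1) and -0.0326 to 0.0777 (Klre1). The cause of these changes was not tested.

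Genes called in Th1 cells numbered 0 with those 2 arrays left out, with only the 4 arrays compared and with all probesets tested (0 to 2 with 1 array left out), against 1. In Th17 cells they numbered 2 with the block within cell type and 2 with dim genes left out (0 to 9), against 0. The difference and mean of effects gave 0 to 4 and 0 to 5. Between cultures, wild-type calls numbered 808 with the 2 arrays left out and 622 with all probesets (667 to 1560), against 1689, and Tet2-/- calls 975 and 1064 (815 to 2383), against 2078. With 2 arrays per group and 4 of 5 members within the olfactory range, differences in those 4 could not be resolved.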

Other observations

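Probesets shared by several Klra (Ly49) genes lay outside the rule of 1 symbol per probeset. There were 4 of them, with 3 to 7 symbols each, and their levels lay between 4.07 and 5.12 log2 units on all 8 arrays, within the range of the olfactory receptor genes.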
